A study of Mus musculus with 4 samples.

Results

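The comparison described here set the library labelled double knockout (Tut1f/f;Trp53f/f;Cre) beside the library labelled Trp53 knockout (Trp53f/f;Cre), 1 library each and 2 of the 4 of the series. By its labels it asks what the loss of Tut1 does to the transcripts of neural stem cells that also lack p53, but the total reads of Tut1 itself, given below, were higher in the library labelled as having lost it, and "double knockout library" names the label only. Genes entered with 20 or more reads in each of these 2 libraries, which held for 7339 of the 14949 genes with a read in the table. With 1 library a side there was no replicate check, so no p-value is given, and every interval covers counting error between the 2 libraries only. All 4 libraries came from primary neural stem cells, which the study derived from embryonic neocortex, and were read by Nanopore long-read sequencing of cDNA. The Trp53f/f;Cre cells carried floxed Trp53 alleles, and the Tut1f/f;Trp53f/f;Cre cells carried floxed alleles of both genes. Both received lipid nanoparticles with mRNA for the Cre recombinase for 3 days, so the comparator had also lost Trp53 and had also been exposed to Cre. The remaining libraries, Tut1f/f cells given empty nanoparticles and Tut1f/f cells given Cre mRNA, served as background. Each library is a bulk of cells, recombined or not.

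TUT1 is an enzyme that lengthens the uridine tail of U6 snRNA. U6 is the small nuclear RNA at the heart of the spliceosome: it pairs with the first bases of an intron at the 5′ splice site and helps to build the catalytic centre. It enters the spliceosome as part of the U4/U6.U5 tri-snRNP, and LSM proteins, La and USB1 bind or trim its 3′ end, while SART3 helps it to pair with U4. Loss of p53 is used with Tut1 loss because p53 drives cell cycle arrest and death after many kinds of stress. Splicing can change without a change in the amount of a gene's RNA, so both the reads of each gene and the share of each isoform were examined.

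Tut1 (chr19:8953847-8966210, GRCm38) was read 27 times in the library labelled double knockout and 14 times in the Trp53f/f;Cre library, or 9.15 and 4.02 reads per 1000000 gene reads after scaling, a unit called CPM below. The Tut1f/f library held 37 reads and the Tut1f/f;Cre library 11. The level was thus 2.28-fold higher (95% interval 1.15 to 4.70) in the library labelled as having lost the gene. The study deleted exon 2, and annotated transcripts that overlap this exon held 9 of the reads in the double knockout library and 7 in the Trp53 knockout library, against 3 in Tut1f/f;Cre and 31 in Tut1f/f. The other 18 of the 27 reads and 7 of the 14 belonged to isoforms named by a read, whose exon 2 is not known here, so the higher total rests mostly on them. A deletion of exon 2 need not lower the total, and these few reads did not show a lower level of exon 2 transcripts in the double knockout library. Each direction below is therefore between libraries as labelled. Trp53 (chr11:69580359-69591873) was low in both, with 19 and 10 reads, against 67 in Tut1f/f;Cre and 175 in Tut1f/f.

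These 2 libraries also differed in sex-linked transcripts. Xist, the RNA that coats the inactive X chromosome, had 49 reads in the Trp53f/f;Cre library and 0 in the double knockout library. The Y-linked genes Kdm5d, Ddx3y, Eif2s3y and Uty had 96, 66, 60 and 42 reads in the double knockout library and 0 in the Trp53f/f;Cre library. The sex of the cells and the Tut1 label cannot be told apart in this comparison. In the other Cre comparison the order was opposite, with Xist at 44 reads in Tut1f/f;Cre and 0 in Tut1f/f. Over the 260 X-linked genes compared the median log2 ratio was 0.07, with 6 genes higher and 3 lower by the rule below, shares near the 2.70% and 1.04% of all 7339 genes. Kdm5c and Ddx3x, which have Y-linked partners, were lower in the double knockout library, by 0.94 and 0.60 on the log2 scale (intervals -1.22 to -0.66 and -0.79 to -0.42). The other such genes that were looked up lay above 0, Eif2s3x at 0.52 (0.11 to 0.93) and Kdm6a at 0.45 (-0.27 to 1.18).

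Genes held 3432639 reads in the Trp53f/f;Cre library and 2863392 in the double knockout library, and a compared gene had a median of 95 and 82 reads. Neural stem cell markers were present in both, with 1350 and 797 reads of Sox2, 1007 and 588 of Nes, and 32690 and 33582 of Fabp7. The summed level of 20 such markers, most of it Fabp7, was 11974 and 13780 CPM. Sox2 and Nes were lower in the double knockout library after scaling, with log2 ratios of -0.52 and -0.54, and over the markers compared 2 intervals lay above and 4 below no change. The 4 endothelial and 5 erythroid markers had no read in either library, and the 5 microglial and 5 mesenchymal markers summed to under 1 CPM in each. Neuronal markers summed to 103 CPM in both, and 10 of the 16 had no read. Oligodendroglial markers were also present, led by Olig2 with 1953 and 1073 reads, and summed to 732 and 525 CPM. The 4 compared all lay below 0, with a median log2 ratio of -0.12 and 1 interval below no change.

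Between the 2 libraries, 198 genes (2.70%) were at least 2-fold higher in the double knockout library and 76 (1.04%) at least 2-fold lower, with a 95% interval that excluded no change. The interval was also widened to hold over all 7339 genes together: 111 genes (1.51%) then remained higher and 33 (0.450%) lower. Most genes had close to the same level, with a median log2 ratio of 0.04 and 5th and 95th percentiles of -0.69 and 0.86. The genes just inside the 2-fold rule, such as Acer3 (36 and 61 reads in the Trp53f/f;Cre and double knockout libraries) and Xbp1 (128 and 54), lay next to genes just outside it, such as Tspan7 (185 and 313) and Matn2 (59 and 25).

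**Figure D1:**
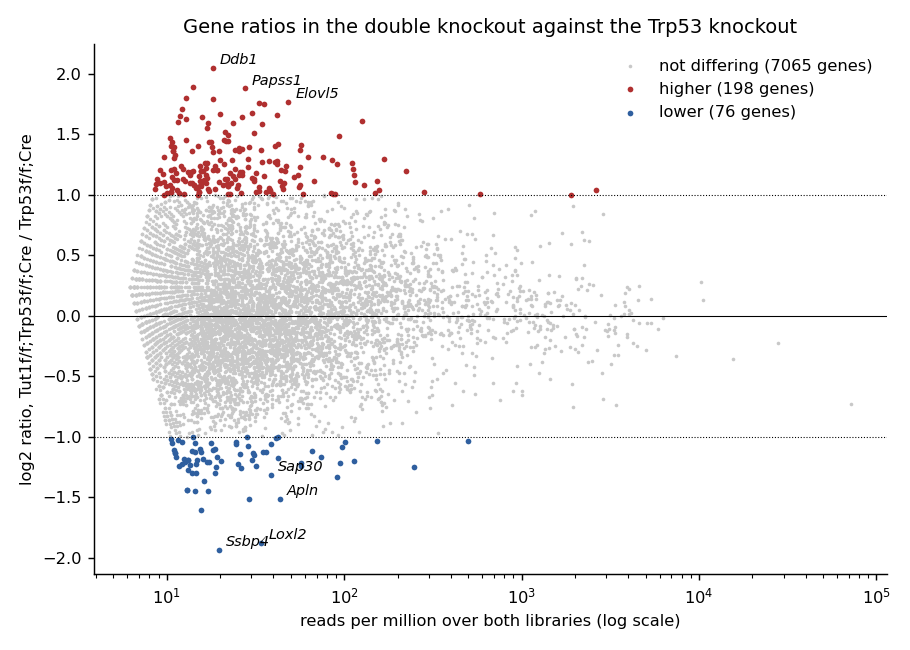
Log2 ratio of the double knockout to the Trp53f/f;Cre library (vertical axis) against CPM over both libraries (horizontal axis, log scale) for 7339 genes, 1 point a gene. The 198 higher genes are red and the 76 lower genes blue, and the dotted lines mark 2-fold.

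The largest ratio belonged to Ddb1 (chr19:10605327-10629819), the adaptor subunit of CUL4 ubiquitin ligases. It had 7.46 CPM in the Trp53f/f;Cre library and 30.8 in the double knockout library, beside 15.5 in Tut1f/f;Cre and 82.5 in Tut1f/f. Its ratio was 4.13-fold (2.65 to 6.66). Next came Prpf19, the ubiquitin ligase of the spliceosome's PRP19 complex, at 6.31 and 23.4 CPM and a ratio of 3.70-fold (2.26 to 6.29). Both rest on few reads in the Trp53f/f;Cre library, 26 and 22.

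Further genes of the 12 encode metabolic proteins, grouped here after their values were seen. Acly, which makes cytosolic acetyl-CoA from citrate, had 16.9 CPM in the Trp53f/f;Cre library and 56.9 in the double knockout library, a 3.36-fold difference (2.49 to 4.60). Elovl5, a fatty acid elongase, went from 23.0 to 78.3 CPM, 3.41-fold (2.63 to 4.45). Papss1, which makes the sulfate donor for sulfation, had 12.3 and 45.4 CPM, 3.68-fold (2.59 to 5.32). In all these genes the level in the double knockout library lay between those of the Trp53f/f;Cre and the Tut1f/f libraries. Azin1, an activator of polyamine synthesis, showed the same order, with 35, 94 and 284 reads in the Trp53f/f;Cre, double knockout and Tut1f/f libraries.

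The others of the 12 had varied roles, and Prpf3 is described with the tri-snRNP below. Sec23b, a subunit of the COPII coat of vesicles that leave the endoplasmic reticulum, had 8.61 CPM in the Trp53f/f;Cre library and 29.8 in the double knockout library. Necap1, an adaptor in clathrin-mediated endocytosis, had 21 and 62 reads, and Nup107, a scaffold protein of the nuclear pore, 21 and 56. Klhl13, an adaptor of CUL3 ubiquitin ligases, had 15.8 and 53.5 CPM, and the membrane glycoprotein gene Gpm6a 20.9 and 66.1. The ratios of these 5 genes ran from 3.15-fold to 3.49-fold, and each remained past the rule with the widened interval.

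Lower genes were fewer. Ssbp4, of the single-stranded DNA-binding protein family, had 29.8 CPM in the Trp53f/f;Cre library and 7.80 in the double knockout library, 3.83-fold lower (2.42 to 6.30). Loxl2, a lysyl oxidase that crosslinks collagen, had 51.1 and 13.9 CPM, 3.68-fold lower (2.61 to 5.30), and Apln, which encodes the peptide apelin, 62.0 and 21.7, 2.86-fold lower (2.15 to 3.84). For Loxl2 and Apln it was the Trp53f/f;Cre library that stood apart: Tut1f/f held 15.8 and 34.7 CPM and Tut1f/f;Cre 17.8 and 30.7. For Ssbp4 the double knockout library stood apart, since Tut1f/f held 28.9 and Tut1f/f;Cre 18.8.

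H1fx, a linker histone gene, had 41.6 and 14.6 CPM, 2.86-fold lower in the double knockout library (2.02 to 4.11). Sap30, a subunit of the SIN3 histone deacetylase complex, had 53.1 and 21.4, 2.49-fold lower (1.86 to 3.36), and was lowest in Tut1f/f at 8.30. The remaining genes of the 12 were Atp13a2, a lysosomal polyamine transporter, the actin-binding Nexn, the scaffold gene Iqgap3, the methionine salvage enzyme Mri1, Tmem132a, Fbxo42 and Cnpy1, with ratios from 2.47-fold to 3.04-fold lower. Of these, Nexn, Mri1, Tmem132a, Fbxo42 and Cnpy1 did not hold with the widened interval, and each had 20 to 26 reads in the double knockout library. Predicted genes and pseudogenes made up 9 of the higher and 17 of the lower genes and are not named here because reads of near-identical copies cannot be assigned with certainty.

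**Figure D2:**
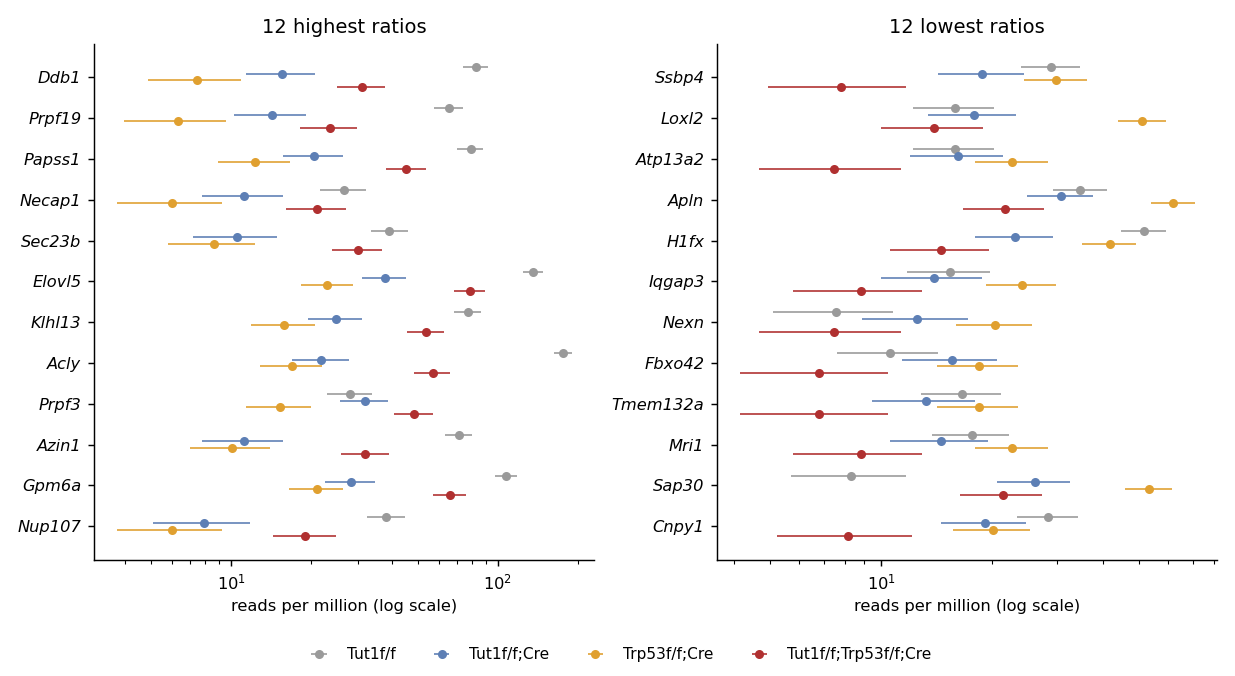
CPM (horizontal axis, log scale) of the 12 genes with the highest and the 12 with the lowest ratio of the double knockout to the Trp53f/f;Cre library, in all 4 libraries, with exact Poisson 95% intervals. On the left the double knockout library (red) lies between Trp53f/f;Cre (orange) and Tut1f/f (grey) for all genes but Prpf3, where it is highest.

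The higher genes had a pattern in the 2 libraries that did not enter the comparison. Of the 198 higher genes, 178 (89.9%) were lower in Tut1f/f;Cre than in Tut1f/f, against 3660 of all 7339 genes compared (49.9%). At least 2-fold lower, with an interval that excluded no change, were 115 of the 198 (58.1%), against 801 of 7339 (10.9%), while 9 were at least 2-fold higher. Their median log2 ratio of Tut1f/f;Cre to Tut1f/f was -1.14, and that of all genes 0.00. The median level of these genes was 12.5 CPM in Trp53f/f;Cre, 30.8 in the double knockout library, 19.6 in Tut1f/f;Cre and 45.3 in Tut1f/f. Thus, the genes higher in the double knockout library were, for the most part, genes with a high level in the Tut1f/f library. That library had received no Cre mRNA. It was also, with the double knockout library, 1 of the 2 with reads of Kdm5d, Ddx3y, Eif2s3y and Uty and none of Xist. These traits cannot be told apart here.

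For the 76 lower genes no such order was seen. Their median log2 ratio of Tut1f/f;Cre to Tut1f/f was -0.13, with 43 below 0, 10 at least 2-fold lower and 8 at least 2-fold higher. Over all 7339 genes the log2 ratios of both pairs, which share no library, had a Pearson correlation of -0.31 and a Spearman correlation of -0.32 across genes, which are not independent replicates.

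**Figure D3:**
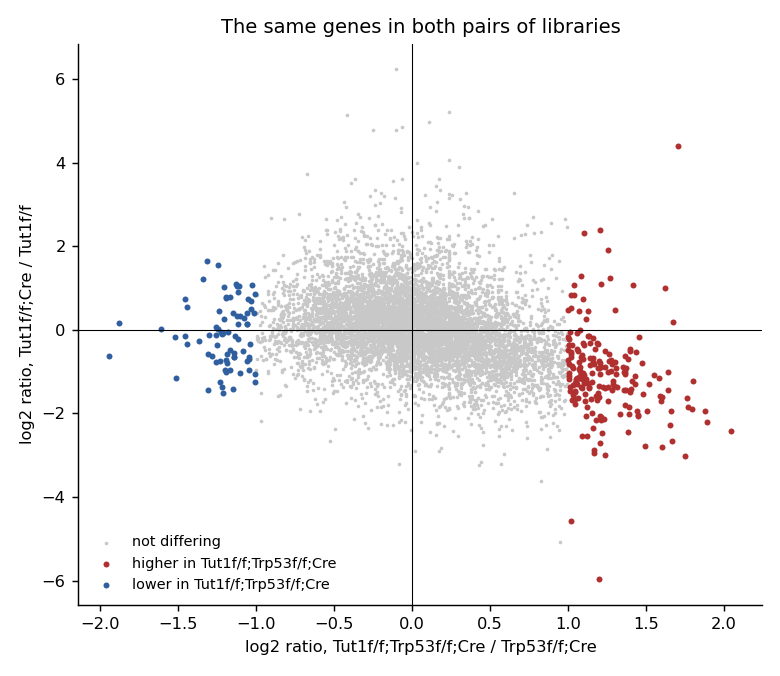
Log2 ratio of the double knockout to the Trp53f/f;Cre library (horizontal axis) and of the Tut1f/f;Cre to the Tut1f/f library (vertical axis), 1 point a gene. Of the 198 red points (higher in the double knockout library) 178 lie below 0 on the vertical axis, and the 76 blue points (lower) are spread on both sides.

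Transcript length moved with the ratios. Among 6911 genes whose most read annotated isoform gave a length, split into 8 equal groups, the median log2 ratio was -0.03 at 65 to 881 bases, 0.24 at 1369 to 1839 bases and -0.07 above 4631 bases. The share of genes higher in the double knockout library was 0.808% in the shortest group, 6.03% at 2342 to 2925 bases and 1.97% in the longest. Between Tut1f/f;Cre and Tut1f/f the median log2 ratio was 0.34 in the shortest group, -0.46 at 1369 to 1839 bases, -0.18 at 2342 to 2925 bases and 0.37 in the longest. The part of length in the calls was not tested. Total levels also depend on how many cells of a kind were present and how much RNA each held, which bulk libraries cannot tell apart.

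Proteins that act with U6 came first among the gene lists, because they are nearest to TUT1. Of 14 genes for U6 end processing and the U6 snRNP, 11 were compared, 1 differed and the median log2 ratio was 0.27, with 9 above and 2 below 0. Over all 7339 genes, 2.70% were higher by the rule and 3917 lay above 0. The differing gene was Mettl16, the methyltransferase of U6 and of MAT2A mRNA, with 13.8 CPM in the Trp53f/f;Cre library and 30.2 in the double knockout library, 2.19-fold higher (1.52 to 3.18), a call that did not hold with the widened interval. Usb1, the exonuclease that trims U6, had 19 and 20 reads, against 78 in Tut1f/f, and was under the minimum. The LSM proteins that bind the U6 tail had log2 ratios between -0.01 (Lsm5) and 0.39 (Lsm8), and Ssb, which encodes La, 0.48 (0.36 to 0.60).

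All 17 proteins of the U4/U6.U5 tri-snRNP were compared, and 16 had a log2 ratio above 0, with a median of 0.33 against 0.04 for all genes. The interval lay above no change for 10 of them and below it for none, against 1643 above and 1152 below of all 7339 genes. The 2-fold rule was passed by 3 of the 17, against 198 of all genes (2.70%). Prpf3, of the U4/U6 snRNP, had 15.2 CPM in the Trp53f/f;Cre library and 48.5 in the double knockout library, 3.19-fold higher (2.31 to 4.45). Prpf8, the protein at the centre of the spliceosome, had 20.9 and 50.5, 2.41-fold higher (1.81 to 3.23), with 43.3 in Tut1f/f;Cre and 18.4 in Tut1f/f. Prpf8 was thus higher in the library labelled as having lost Tut1 in both pairs of libraries. Eftud2, the GTPase of the U5 snRNP, had 6.03 and 13.6, 2.25-fold higher (1.30 to 4.02), and did not hold with the widened interval. Eftud2 went the other way in the other pair, with 6.93 CPM in Tut1f/f;Cre and 53.8 in Tut1f/f. Prpf3 had 31.7 and 27.9 CPM there, a log2 ratio of 0.18 with an interval that included 0 (-0.23 to 0.59).

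In other RNA-binding lists the differing genes were about as few as over all 7339 genes, of which 2.70% were higher and 1.04% lower. Of the 22 SR proteins and splicing kinases compared, none differed (median log2 0.11), and of 16 nonsense-mediated decay factors none (0.09). Among 22 hnRNP proteins the median was 0.28 and 1 differed: Hnrnph2, an X-linked gene, had 101 and 202 reads, 2.36-fold higher in the double knockout library (1.85 to 3.03). Hnrnph2 is a close paralogue of Hnrnph1, and how reads shared by both were assigned is not given in the sources used here.

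Because both libraries were labelled as lacking Trp53, p53 targets were examined. Of 30 such genes, 16 were compared and none passed the 2-fold rule, with a median log2 ratio of 0.20. Of the 16, 10 lay above 0 and 6 below, with 5 intervals above and 2 below no change. The summed level of all 30 was 1783 and 1477 CPM, most of it Ddit4, a stress-induced inhibitor of mTOR signalling, which had 1204 and 781 CPM and a log2 ratio of -0.63 (-0.70 to -0.55). The lowest ratio was that of Apaf1, the core of the apoptosome, at -0.67 (-1.26 to -0.09). Cdkn1a, the cell cycle inhibitor p21, had 171 and 221 reads in the Trp53f/f;Cre and double knockout libraries, against 744 and 649 in Tut1f/f and Tut1f/f;Cre, and its log2 ratio was 0.61 (0.32 to 0.91). Bax, a pore-forming protein of apoptosis, had 637 and 621 reads, with a log2 ratio of 0.20 (0.04 to 0.36). Pmaip1, another death gene, had 1 read in each. Among 19 DNA damage response and repair genes 1 differed, Fancd2, with 28 and 48 reads and a 2.02-fold higher level (1.24 to 3.35) that did not hold with the widened interval, and the list median was -0.09. Over all 7339 genes 2.70% were higher and 1.04% lower, and 1 call says little of a list of this size. Of 15 ATF4 and integrated stress response genes none differed (median 0.29).

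Cholesterol synthesis genes had a median log2 ratio of 0.28 over 23 genes, and 3 were higher, against 198 of all 7339 genes (2.70%). Hmgcs1, which makes HMG-CoA, had 191 CPM in the Trp53f/f;Cre library and 389 in the double knockout library, a log2 ratio of 1.03 (0.89 to 1.17). Dhcr7, which carries out the last step of the pathway, had 27.6 and 63.4, 2.30-fold (1.79 to 2.97). Acat2, the cytosolic thiolase that feeds the pathway, had 34.7 and 81.3, 2.34-fold (1.87 to 2.94). The same list had a median of -1.14 between Tut1f/f;Cre and Tut1f/f, where Hmgcs1 went from 553 to 173 CPM.

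In the mitochondrion, nuclear genes of the respiratory chain had a median log2 ratio of 0.15 over 79 genes, and 3 were higher, a share near the 2.70% of all genes. Ndufs1, a complex I subunit, had 18.1 and 54.2 CPM in the Trp53f/f;Cre and double knockout libraries, 3.00-fold (2.23 to 4.08). Sdha, the catalytic subunit of complex II, had 55.7 and 133, 2.39-fold (2.01 to 2.86). Uqcrfs1, the Rieske protein of complex III, had 7.17 and 14.6 but 230 in Tut1f/f, so its 2.03-fold ratio (1.21 to 3.47) was small beside its range and did not hold with the widened interval. Of 12 mitochondrially encoded genes compared, 9 lay below 0 and 1 passed the rule, against 2.70% of all genes. This was mt-Co1, a subunit of complex IV, with 6196 and 10763 reads and a 2.05-fold higher level (1.99 to 2.12). Scaling without ribosomal RNA and mitochondrial genes shifted each log2 ratio by -0.0405. That takes the mt-Co1 ratio, 1.037 on the log2 scale, just under 2-fold. The 76 mitochondrial ribosomal proteins compared had a median of 0.18, with 61 above 0, beside 3917 of all 7339 genes. Of the 76, 1 was higher by the rule, Mrps27 (2.07-fold, 1.62 to 2.66), against 2.70% of all genes.

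Proteasome subunits had the highest list median, 0.39 over 35 genes. Of these, 32 lay above 0 and 27 had an interval above no change, against 1643 of all 7339 genes. Psmd5, an assembly chaperone of the regulatory particle, passed the 2-fold rule with 35 and 80 reads (2.70-fold, 1.79 to 4.14), 1 of the 35 against 198 of all 7339 genes. Heat shock proteins had a median of 0.36 over 13 genes, with none past the rule. The 83 cytosolic ribosomal proteins had a median of 0.01, with 30 intervals above and 32 below no change, against 1643 and 1152 of all 7339 genes.

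In DNA replication, 25 genes were compared, with a median log2 ratio of 0.27, and 2 were higher, against 2.70% of all genes. Cdc6, which loads the replicative helicase, had 8.61 and 22.7 CPM, 2.64-fold (1.69 to 4.20). Uhrf1, which recruits the maintenance DNA methyltransferase, had 9.47 and 22.4, 2.36-fold (1.53 to 3.70), and 55.3 in Tut1f/f, but did not hold with the widened interval. The list of 26 cell division genes had a median of -0.04 with none past the rule.

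Immediate early genes had the lowest list median, -0.39, and all 9 genes compared lay below 0. None passed the 2-fold rule, but 7 had an interval below no change, against 1152 of all 7339 genes. Jun, a subunit of the AP-1 transcription factor, had 804 reads in the Trp53f/f;Cre library and 420 in the double knockout library, a log2 ratio of -0.70 (-0.87 to -0.52). Ier3 had 973 and 504 reads (-0.71, -0.87 to -0.55), and Egr1, a zinc finger transcription factor, 737 and 477 (-0.39, -0.56 to -0.22). These 3 genes were named after their values were seen. Notch pathway genes had a median of -0.24 over 15 genes, with 12 below 0 beside 3422 of all 7339 genes, but only 2 intervals lay below no change and 2 above. The 1 gene that passed the rule, against 2.70% of all genes, was higher: Ncstn, which encodes a subunit of gamma-secretase, had 12.1 and 29.5 CPM, 2.45-fold higher (1.67 to 3.62).

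Some lists held 1 lower gene and no higher one. Over all genes 76 of 7339 (1.04%) were lower, and among 33 lists such single calls say little of the list. Xbp1, a transcription factor of the unfolded protein response, had 36.7 and 18.3 CPM, 2.01-fold lower (1.45 to 2.81), in a list of 18 endoplasmic reticulum genes with a median of -0.11. Vegfa, a hypoxia-regulated growth factor, had 24.7 and 11.5, 2.14-fold lower (1.42 to 3.29), among 21 glycolysis and hypoxia genes with a median of -0.08. Lamb2, a laminin chain, had 15.2 and 7.46, 2.04-fold lower (1.22 to 3.52), among 17 extracellular matrix genes with a median of 0.10. None of these 3 calls held with the widened interval. The 14 neural stem cell markers compared had a median of -0.00 with none past the rule, and the other cell type lists also had none.

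**Figure D4:**
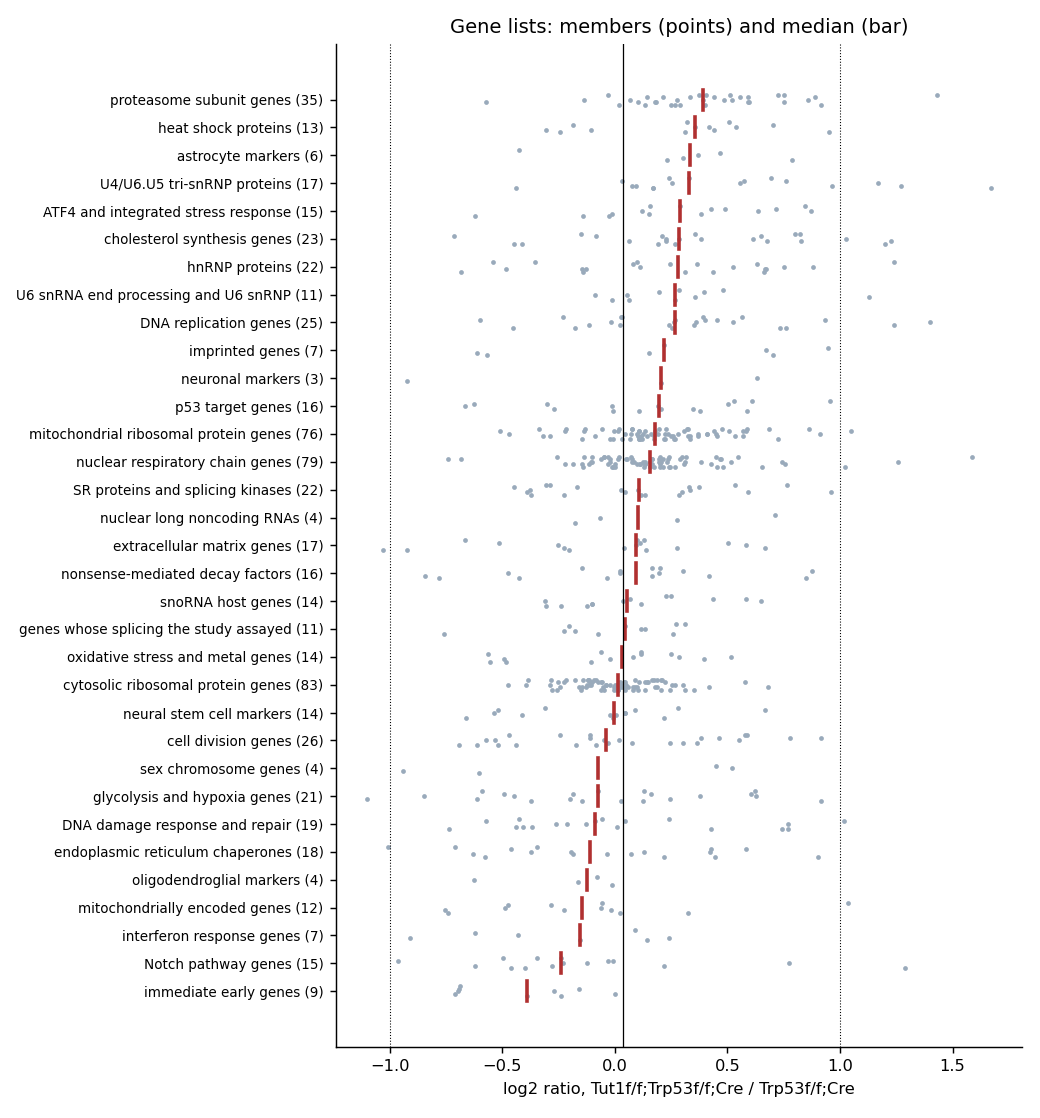
Log2 ratio of the double knockout to the Trp53f/f;Cre library (horizontal axis) for the members compared (points) of 33 gene lists, with each list's median (red bar) and the number of members compared in parentheses. The solid line is the median of all genes (0.04), the dotted lines mark 2-fold, and list medians run from -0.39 (immediate early genes) to 0.39 (proteasome subunits).

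A further 1036 genes reached 20 reads in 1 of these 2 libraries only. They passed that number through the library where they are high, so their direction follows from the choice and the values below are descriptions. Apart from the Y-linked genes, the higher ones included Aldh1l1, a folate enzyme used as an astrocyte marker, with 11 reads in the Trp53f/f;Cre library and 71 in the double knockout library, 7.62-fold (lower bound 4.01). Tut1f/f held 187 reads of it and Tut1f/f;Cre 16. The astrocyte list as a whole had a median of 0.34 over 6 genes, and Aqp4 had 3 and 1 reads. The predicted gene Gm3182 was read 22 times in the double knockout library and 0 times in the Trp53f/f;Cre library, at least 8.66-fold higher by a floor of 3 counts, while the interval for counting error reached down to 6.47-fold.

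On the lower side, Nkx6-2, a homeobox gene of the ventral neural tube and of oligodendrocytes, had 44 reads in the Trp53f/f;Cre library and 8 in the double knockout library, 4.66-fold lower (2.17 to 11.5). Six3os1, a noncoding RNA beside Six3, had 24 and 0 reads, at least 6.77-fold lower by that floor, with a log2 interval limit of -2.35, and Cand2 56 and 13 reads, 3.65-fold lower (1.97 to 7.27). The predicted genes Gm17081 (67 and 0 reads, at least 18.9-fold lower by the floor, with a log2 interval limit of -3.90) and Gm21541 (68 and 6 reads) both lie on chromosome 4. Gm17081 is annotated as a pseudogene. For these and for Gm3182, reads of near-identical copies cannot be assigned with certainty. Xist completes this group, at least 13.8-fold lower by the floor and 10.8-fold by the interval.

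Isoform usage was compared as the percentage of a gene's reads. Of 19013 isoforms with 10 or more reads over the 2 libraries, 478 (2.51%) had a share at least 10 points higher in the double knockout library and 591 (3.11%) at least 10 points lower, with a 95% interval that excluded 0. With the interval widened over all isoforms, 20 (0.105%) were higher and 24 (0.126%) lower, in 34 genes, so most single isoform calls did not hold at this stricter level. Annotated protein-coding transcripts had 202 higher and 292 lower calls among 6920, and isoforms named by a read 126 and 133 among 6964.

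The isoforms with the largest shifts belonged to genes of varied roles. Rfx4, a transcription factor gene of neural progenitors, had the largest among genes with 50 or more reads in each library: the transcript ENSMUST00000060397 made up 75.4% of 57 reads in the Trp53f/f;Cre library and 34.3% of 108 reads in the double knockout library, a fall of 41.2 points (interval -53.6 to -25.5). It held 46.3% in Tut1f/f;Cre and 29.7% in Tut1f/f. In Cmss1, ENSMUST00000232413 had 66.7% and 34.7%, and ENSMUST00000114371, which ends 259433 bases away from it, 30.1% and 58.7%. Both Cmss1 shares lay closer to those in Tut1f/f, 28.6% and 66.0%, in the double knockout library than in the Trp53f/f;Cre library. Tut1f/f;Cre held 43.4% and 52.5%. Nisch (ENSMUST00000165981) went from 5.62% to 35.5% of reads, and in the cell cycle gene Cdc23 a variant of ENSMUST00000133181 from 15.7% to 51.4%.

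Other isoforms that held with the widened interval, picked after their values were seen, include the following. Ptbp1, a splicing repressor of neural exons, had ENSMUST00000165704 at 85.1% of 402 reads in the Trp53f/f;Cre library and 69.0% of 368 reads in the double knockout library. Hnrnpf had ENSMUST00000180341 at 28.6% and 15.0%. The oncogene Myc had ENSMUST00000159327 at 83.4% of 350 reads and 62.6% of 246 reads, with a variant of ENSMUST00000022971 at 11.7% and 30.1%. Glyr1 had ENSMUST00000023189 at 87.9% and 68.8%, against 33.3% in Tut1f/f. In Hmgcs1, whose total was also higher, ENSMUST00000224188 had 48.8% and 28.3%, a fall of 20.5 points (-25.1 to -15.9). Rbmxl1 (ENSMUST00000049245, 73.4% and 58.2%) belongs to a family of near-identical copies, so its reads are uncertain.

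Usage in the other 2 libraries leaned to the opposite side, less clearly than the gene levels. Of the 24 isoforms lower by the widened interval, 17 had a higher share in Tut1f/f;Cre than in Tut1f/f, and of the 20 higher ones 14 had a lower share. For the 591 lower isoforms the count was 348 of 569 with enough reads in those libraries (61.2%), and for the 478 higher ones 265 of 456 (58.1%), beside 47.7% and 45.1% of all isoforms compared.

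In 125 genes, 1 annotated isoform was higher and another lower by the rule, and 34 of these pairs differed by a cassette exon, an internal exon that one transcript holds and the other skips. Inclusion was then counted over every annotated transcript of the gene that holds or skips that exon. The exon was included less in the double knockout library in 23 genes and more in 11. Since the exons came from the isoforms that differed, these are descriptions of where the shift lies. A length that is a multiple of 3, which keeps the reading frame, was found for 20 of the 34, and 27 lay in coding sequence.

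The sequences of 7 coding cassette exons are shown because they are the letters that one library's transcripts carried more often than the other's. They are read from GENCODE transcripts (GRCm38), 5′ to 3′, with the cassette exon in capitals between 10 bases of each neighbouring exon in lower case.
Exoc1: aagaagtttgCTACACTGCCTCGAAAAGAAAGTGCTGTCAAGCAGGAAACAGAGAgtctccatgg
Ndrg2: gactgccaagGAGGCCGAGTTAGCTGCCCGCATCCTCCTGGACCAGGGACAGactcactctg
Max: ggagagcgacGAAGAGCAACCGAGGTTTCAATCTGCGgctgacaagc
Psap: gatgcacatgCAGGATCAGcaacccaagg
Ptbp1: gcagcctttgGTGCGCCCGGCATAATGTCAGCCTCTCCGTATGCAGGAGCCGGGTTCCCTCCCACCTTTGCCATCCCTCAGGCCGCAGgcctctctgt
Uba3: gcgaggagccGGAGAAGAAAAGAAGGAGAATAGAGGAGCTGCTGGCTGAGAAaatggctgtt
Acly: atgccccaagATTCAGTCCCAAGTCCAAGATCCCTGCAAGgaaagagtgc

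The first 4 of these exons were skipped more often in the double knockout library. Exoc1, a subunit of the exocyst that tethers secretory vesicles, holds a 45-base exon on the plus strand at chr5:76557819-76557863, included in 83.3% of 30 reads in the Trp53f/f;Cre library and 34.4% of 32 reads in the double knockout library, a difference of -49.0 points (-65.8 to -24.8). The depth is low, and Tut1f/f (61.2%) and Tut1f/f;Cre (94.4%) were also far apart. Max, the partner of MYC, holds a 27-base exon on the minus strand at chr12:76961263-76961289, included in 83.5% and 61.5% of reads (-22.0 points, -34.8 to -8.3). In Ndrg2, a 42-base exon on the minus strand (chr14:51911086-51911127) was included in 83.6% and 60.2%, against 63.5% in Tut1f/f.

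Psap, which encodes the precursor of the saposins, lysosomal activators of sphingolipid breakdown, holds a 9-base exon (chr10:60297537-60297545, plus strand), included in 26.2% of 172 reads in the Trp53f/f;Cre library and 13.7% of 402 reads in the double knockout library. This share in the double knockout library was below that in all other 3 libraries, with 17.4% in Tut1f/f;Cre and 23.4% in Tut1f/f. Its interval (10.7 to 17.4) overlapped that of Tut1f/f;Cre (12.9 to 22.9).

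The last 3 of the exons were included more often in the double knockout library. In Ptbp1 the 78-base exon (chr10:79860117-79860194, plus strand) was in 8.06% of 372 reads and 22.3% of 327 reads, a difference of 14.3 points (9.0 to 19.6), with 9.74% in Tut1f/f;Cre and 18.9% in Tut1f/f. In Uba3, a subunit of the enzyme that activates NEDD8, the 42-base exon (chr6:97205306-97205347, minus strand) was in 12.6% and 30.8% of 143 reads each. In Acly the 30-base exon (chr11:100503160-100503189, minus strand) was in 29.1% of 55 reads and 48.7% of 158 reads, and the gene's total was higher as well.

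Among the exons not printed, Ociad1 (153 bases, 82.6% and 59.7% of reads), Hmgcs1 (59 bases outside the coding sequence, 55.2% and 32.8%) and Ube2v2 (126 bases, 81.0% and 60.6%) were included less in the double knockout library. In Ociad1 inclusion was also lower in Tut1f/f;Cre (172 of 292 reads) than in Tut1f/f (441 of 551 reads), and so it was in Ube2v2 (58.9% against 75.1%), that is on the same side by Tut1 label in both pairs of libraries. The 195-base exon of Scnm1, named after its values were seen, did the same, with 89.5% and 69.0% in the libraries compared and 68.9% in Tut1f/f;Cre beside 90.5% in Tut1f/f. Hmgcs1 went the other way, with 43.6% in Tut1f/f;Cre and 27.1% in Tut1f/f. Rrp1, a ribosome assembly gene, included an 83-base exon more, 49.6% and 78.9%. The largest rise among the 34 was that of a 105-base exon of H2-T22, with 40.5% of 37 reads and 81.0% of 21 reads, but reads of this family of similar genes are uncertain. Of the 23 exons included less, 16 had a higher inclusion in Tut1f/f;Cre than in Tut1f/f and 7 a lower one, and of the 11 included more, 8 had a lower one and 3 a higher one.

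**Figure D5:**
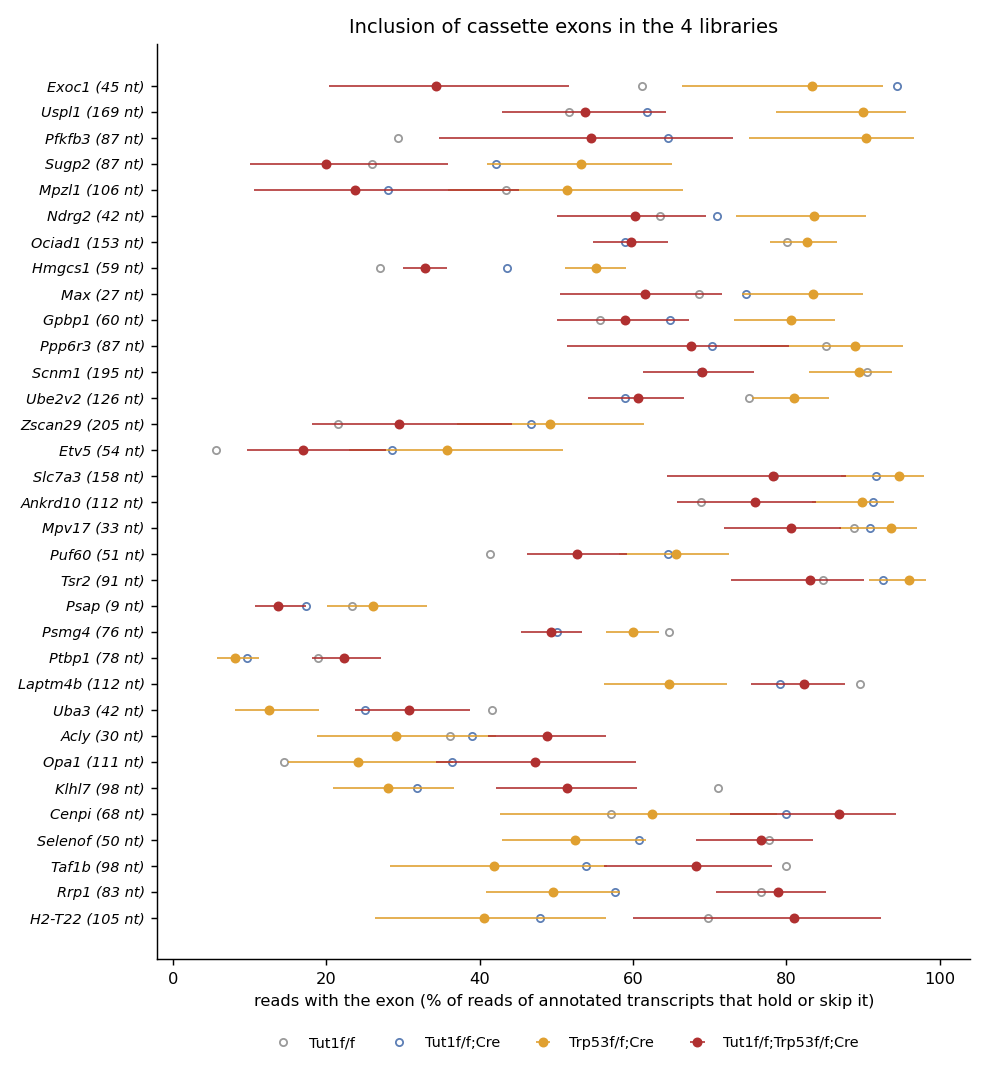
Percentage of reads that include each of 33 of the 34 cassette exons (horizontal axis) in the Trp53f/f;Cre (orange) and double knockout (red) libraries, with Wilson 95% intervals, and in Tut1f/f and Tut1f/f;Cre (open circles), over annotated transcripts that hold or skip the exon. Inclusion is lower in the double knockout library for 22 of those plotted, from Exoc1 at the top, and higher for 11, down to H2-T22.

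Retained introns were examined because U6 acts in the removal of introns. Transcripts annotated as retained intron took 1.95% (Wilson interval 1.93 to 1.97) of reads of annotated transcripts in the Trp53f/f;Cre library and 2.04% (2.02 to 2.06) in the double knockout library, a difference of 0.09 points (0.06 to 0.11) that turned to -0.05 points (2.41% and 2.37%) once ribosomal RNA and mitochondrial transcripts were left out. Tut1f/f stood below both at 1.19%, and Tut1f/f;Cre was at 2.06%. The mean over 2478 genes with such a transcript was 27.8% and 27.2%, with 985 genes higher and 969 lower. The 2 libraries thus held close to the same share of retained introns, with a direction set by what is counted. Transcripts annotated for nonsense-mediated decay took 0.412% and 0.440%, and 0.510% in both libraries without ribosomal RNA and mitochondrial transcripts.

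Of 1550 retained intron isoforms compared, 39 (2.52%) had a higher share in the double knockout library and 67 (4.32%) a lower one, and none held with the widened interval. Protein-coding transcripts had 2.92% and 4.22%. Among the retained intron isoforms with the largest differences, that of Tnrc6a, a scaffold of microRNA silencing, was higher, with 13.7% and 40.3% of reads (26.6 points, 13.3 to 39.3). That of Top3a, a topoisomerase, was also higher (20.4% and 43.1%). Lower ones included Sf3b3, of the U2 snRNP, with 41.8% of 110 reads and 19.8% of 126 reads (-22.0 points, -33.1 to -10.2), Dcaf8 (48.6% and 24.0%), Pask (63.9% and 38.5%) and Tbce, a tubulin folding cofactor (33.3% and 10.7%). Also lower were Ndrg3 (30.9% and 9.80%), Atat1 (30.8% and 9.09%) and Zfp157 (67.6% and 47.0%).

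Of the 67 lower isoforms, 63 had enough reads in the other libraries, with a median share of 37.8% in Trp53f/f;Cre, 15.5% in the double knockout library, 28.6% in Tut1f/f;Cre and 8.96% in Tut1f/f. For the 39 higher isoforms, 36 with enough reads, the medians were 11.4% in Trp53f/f;Cre, 28.6% in the double knockout library, 19.6% in Tut1f/f;Cre and 10.7% in Tut1f/f. The isoforms were chosen for the order of the first 2 values, and Tut1f/f was low for retained introns in general, with a median of 3.70% over all compared. Of all 1462 retained intron isoforms with enough reads, 1116 (76.3%) had a higher share in Tut1f/f;Cre than in Tut1f/f, of the 63, 55 (87.3%), and of the 36, 29 (80.6%).

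For 7 differing isoforms whose gene had 50 or more reads in each library, exactly 1 intron of a well-read coding transcript lay wholly within the retained intron transcript. The 5′ splice sites of these introns are shown because U6 pairs with the first intron bases. Each line has the last 10 exon bases and the first 20 intron bases, 5′ to 3′ on the gene's strand (GRCm38), with the first 6 intron bases in capitals.
Hirip3 (chr7:126862711-126862740, plus strand): gaaaatgcagGTGTGGgtctaaccctgggc
Kdelc1 (chr1:44112983-44113012, minus strand): ccatgggccgGTGAGAgatgatcagggttg
Mdp1 (chr14:55660148-55660177, minus strand): acaagagcagGTGAGActataagaggtatg
Alkbh6 (chr7:30312379-30312408, plus strand): gggcatcatgGTAACCgcacatcctcatcc
Dlst (chr12:85110950-85110979, plus strand): cttccagaagGTACTGtctggcggggcccg
Prc1 (chr7:80301150-80301179, plus strand): gccatttcagGTCTGGtagaccatgcttgg
Ahsa1 (chr12:87269948-87269977, plus strand): tgaagtggagGTTTGTgtttgccgagtcct

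The isoforms of the first 4 genes were higher in the double knockout library. Hirip3 had 14.8% of 243 reads in the Trp53f/f;Cre library and 30.5% of 174 reads in the double knockout library, a difference of 15.6 points (7.6 to 23.8). Mdp1 had 14.0% and 27.7%, Kdelc1 6.78% and 20.7%, and Alkbh6 9.52% and 21.7%. Their introns were short, from 69 to 202 bases. The isoforms of the other 3 were lower: Dlst, a subunit of the oxoglutarate dehydrogenase complex, had 45.6% and 21.8%, the mitotic spindle gene Prc1 28.0% and 17.0%, and the HSP90 cochaperone gene Ahsa1 59.2% of 517 reads and 48.3% of 453 reads. Their introns measured 538, 3201 and 379 bases. Over all 390 GT-AG introns found in this way in 287 retained intron isoforms, the median length was 329 bases, 11.5% began with GTAAGT and 14.1% with GTGAGT. None of the 7 sites shown begins with either of these. Over all introns of differing isoforms, GTAAGT began 2 of 10 in higher and 3 of 12 in lower isoforms, and GTGAGT 2 and 0, too few for a comparison.

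Genes whose splicing the study assayed were looked up isoform by isoform. Its qPCR in neural stem cells covered Pnisr, Prpf4b, Ube2v2 and Rit1. Its other qPCR of retained introns used embryonic pallium of Tut1f/f;Emx1-Cre mice, in which Trp53 was not deleted. For those genes the values below are from other cells and another genotype. Gnl3, a nucleolar GTPase gene, had the retained intron transcript ENSMUST00000228774 at 13.7% of 350 reads in the Trp53f/f;Cre library and 16.6% of 355 reads in the double knockout library, and ENSMUST00000227869 at 11.1% and 7.89%, both with an interval that included 0. The retained intron transcript of C1qbp (ENSMUST00000155371) had 12.5% and 9.20%, and that of Prelid1 (ENSMUST00000224220) 2.21% and 2.63%, also with intervals that included 0. Tut1f/f was lower in each of these 4, at 8.27%, 6.47%, 3.61% and 1.97%. It was not lower in another retained intron transcript of Gnl3, ENSMUST00000227389, which had 4.86% and 5.07% in the libraries compared and 5.40% in Tut1f/f.

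In Prpf4b, a splicing kinase gene, the retained intron transcript ENSMUST00000221639 had 58.4% of 1389 reads and 67.2% of 1275 reads. It was 8.8 points higher (5.2 to 12.5), under the 10-point rule. The noncoding ENSMUST00000223228 had 23.6% and 12.6%, a difference that held with the widened interval. Both shifts were on the same side by Tut1 label in the other pair. There the shares were 64.8% and 12.7% in Tut1f/f;Cre beside 35.1% and 38.3% in Tut1f/f. Srsf10 had ENSMUST00000129718 at 60.6% and 51.1% (-9.5 points, -15.6 to -3.4). It went the other way in the other pair, with 57.2% in Tut1f/f;Cre and 20.6% in Tut1f/f. In Pnisr, ENSMUST00000152666 had 16.8% and 31.9%, and 34.3% in Tut1f/f;Cre beside 16.1% in Tut1f/f, a shift on the same side by Tut1 label in both pairs. ENSMUST00000150368 of Pnisr had 12.9% and 4.17%, under the 10-point rule. For Dhodh, Rit1 and Kif3a no annotated transcript differed, at 38 to 88 gene reads a library. Trim28 (10 and 10 reads) and Pidd1 (3 and 3) were too shallow to compare. None of the 11 of these genes compared passed the 2-fold rule in total level, with log2 ratios from -0.76 (Kif3a) to 0.31 (Dhodh).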

How the data were processed

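Nanopore long-read cDNA libraries of neural stem cells were compared, 1 library per genotype. The authors deposited 1 table of whole-number read counts per isoform and library, not normalized. Per the labels, its genome build was mm10. For long reads of embryonic pallium the study names minimap2 with an Ensembl transcriptome and FLAIR. Whether these made the table of the cultured cells, and its filters, strand handling, multiple mapping and pooling of runs, are not given in the sources used here. Isoform counts were summed by Ensembl gene identifier. Entries that name no gene (28.9% of reads in Trp53f/f;Cre, 27.3% in Tut1f/f;Trp53f/f;Cre) stayed out of library sizes and comparisons. Symbols, biotypes, positions (1-based) and sequences came from GENCODE M21 on GRCm38, the same assembly as mm10, which held 21814 of the 21893 plain Ensembl transcripts.

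Levels (CPM) are reads per 1000000 gene reads, scaled by TMM over all 4 libraries (edgeR 4.0.16, R 4.3.3). Ratios have exact conditional 95% intervals, levels exact Poisson intervals, shares Wilson intervals and differences of shares Newcombe intervals. PCR reads are not independent molecules, so these cover counting error only. A gene differed at 2-fold or more with an interval excluding no change, given 20 or more reads in each library. An isoform differed at 10 points or more, given 10 or more reads over both libraries. The widened interval shares an error rate of 0.05 over all features compared and was added after the data were seen. A count of 0 was set to a floor of 3. The rules were tested on simulated data in Python 3.11.15 (scipy 1.17.1).

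Genes named are Tut1, Trp53, the assayed genes, up to 6 differing members per list, the 12 largest ratios in each direction outside pseudogenes and predicted genes, and up to 6 genes a direction under the minimum in 1 library. Isoforms named are the largest differences in genes with 50 or more reads in each library, with up to 10 retained introns. Cassette exons, splice sites, isoforms past the widened interval and other genes were chosen after their values were seen. The members and gene lists were chosen with earlier results of these data known. Alternatives were DESeq2 1.42.0 size factors, total reads, other minimums, folds and intervals. No per-sample column was left unused. Results for some genes are not reported here.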

Additional observations from a re-analysis of the deposited data

Results flagged for a closer look

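Some genes differed in opposite directions in the 2 pairs of libraries, by at least 2-fold and with an interval that excluded no change in each, and had 20 or more reads in both libraries compared. The value given is the log2 ratio of the double knockout to the Trp53f/f;Cre library minus that of Tut1f/f;Cre to Tut1f/f. With 1 library per genotype the difference was not tested. Among the genes with the largest ratios it was 4.46 for Ddb1, 4.09 for Prpf19, 3.83 for Papss1, 3.04 for Necap1, 3.68 for Sec23b, 3.62 for Elovl5, 3.40 for Klhl13, 4.76 for Acly, 4.33 for Azin1, 3.59 for Gpm6a and 3.92 for Nup107. Among members of the gene lists it was 5.61 for Uqcrfs1, 4.24 for Uhrf1, 4.13 for Eftud2, 2.80 for Dhcr7, 2.70 for Hmgcs1, 2.61 for Acat2, 2.74 for Ndufs1, 2.63 for Sdha, 2.73 for Psmd5, 2.59 for Ncstn and 2.22 for Mrps27. Sap30 had the other sign, at -2.97, and was the one named gene that did so at 2-fold in each pair.

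Reads that name no gene were left out of the comparison, and 941 of them lay on chromosome Y in the double knockout library, beside 318 in Trp53f/f;Cre, 192 in Tut1f/f;Cre and 2783 in Tut1f/f. They fell on 91 loci, of which 47 had reads in the double knockout but not in the Trp53f/f;Cre library.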

How the results depend on the processing

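The counts of genes higher and lower were 198 and 76. They were 215 and 72 with scaling by total reads, 172 and 89 with DESeq2 size factors, 170 and 94 with TMM without ribosomal RNA and mitochondrial genes, 196 and 76 with 99% intervals, and 191 and 73 without chromosomes X and Y. They moved to 527 and 303 with no minimum of reads, 90 and 26 at 50 or more reads, 20 and 3 at 3-fold, 1643 and 1152 with no fold threshold, and 111 and 33 with the widened interval, which was added after the data were seen. The isoform counts, 478 and 591, moved to 158 and 211 at 20 points, 253 and 271 with plain Ensembl transcripts only, 239 and 300 with 99% intervals, and 20 and 24 with the widened interval. The difference in retained intron share turned to -0.603 points as a mean over genes and -0.0493 points without ribosomal RNA and mitochondrial transcripts. Of the list medians, that of neural stem cell markers turned to 0.0202 with total reads, interferon response genes to 0.0911 and glycolysis and hypoxia genes to 0.0278 at 50 or more reads, oxidative stress genes to -0.00306 with DESeq2 and -0.0198 at 50 or more reads, and ribosomal proteins to -0.0192 with DESeq2. Among named list members, mt-Co1, Hmgcs1, Uqcrfs1 and Fancd2 fell just under 2-fold with TMM without ribosomal RNA and mitochondrial genes. The causes were not tested.

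No paired analysis was possible because each group has 1 library. Depth limits the low genes: a compared gene had a median of 95 and 82 reads, and several named genes had 20 to 30 in 1 library.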

Other observations

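Pseudogenes, which are often hard to tell from their parent genes, had a median log2 ratio of -0.30 over 199 compared, with 2 higher and 11 lower, while 6927 protein-coding genes had a median of 0.05, with 195 higher and 60 lower. Among 7457 loci that name no gene, 88 were higher and 132 lower by the same rule.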
